A study of Astyanax mexicanus with 6 samples.

Results

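In livers of the Mexican tetra, Astyanax mexicanus, 55 genes differed at least 2-fold between the libraries of the same population, and did so in each of 3 populations. They were chosen by measured values: CPM (a read count divided by the size of its library after TMM scaling, an edgeR method that assumes most genes do not change) had to average at least 2 over all 6 libraries, and CPM + 0.5 of library 1 and library 2 had to be at least 2-fold apart in Pachon, in Tinaja and in Surface, in either direction. The 55 members are 0.201% of the 27420 genes in the table and 0.51% of the 10787 genes that averaged 2 CPM or more. Because the rule used the differences between libraries of a population, those differences are described here without a test.

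The study sequenced polyA RNA, in strand-specific libraries, from the liver of 2 cave populations, Pachon and Tinaja, and of Surface fish, the river-dwelling form, with 2 libraries each. The labels give no genotype, agent, age, sex, feeding state or sampling time for any group, and give no information on whether a population's libraries were made from separate fish, pools or 1 fish, so that the p-values reflect no more than the spread among these libraries, and that spread may be technical. Library numbers come from the labels and are names: library 1 of one population has no stated link to library 1 of another. No reference at hand paired the table's identifiers with gene names. The liver label therefore could not be checked against marker genes, and no role can be given here for a member. The marker and pathway lists could not be used. Members are numbered by mean CPM, member 1 having the highest, and 4 of them are given by their Ensembl identifier. CPM are not per gene length, so the numbering does not order members by amount of transcript.

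Cave forms of this species live in the dark on a scarce and uneven food supply and are known for lost eyes and pigment and for altered fat and sugar metabolism. Liver makes most proteins of the blood plasma, stores and releases sugar and fat, clears foreign compounds and, in egg-laying females, makes the precursors of yolk, and many of its transcripts are known to follow meals, time of day, reproductive state and infection. In bulk tissue fewer cells of a type and less RNA per cell cannot be told apart.

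Library totals ran from 22168622 to 29521610 counts, and 18361 to 19332 genes had at least 1 read in a library. Library 1 had fewer counts than library 2 in Pachon, with 24809335 and 25945144, and more in Tinaja, with 24865389 and 22168622, and in Surface, with 29521610 and 24702895. TMM factors lay between 0.822 in Surface 1 and 1.33 in Pachon 2. Outside the members, the counts ran from 14191951 in Tinaja 2 to 28638661 in Surface 1. The part of depth in the results below was not tested. Every member had reads in every library, the lowest count being 4. Exact 95% binomial intervals for the ratio of library 1 to library 2 lay wholly beyond 2-fold in all 3 populations for 43 members, a description of depth for values that the rule chose. They cover counting error alone, and can understate it, because PCR copies without molecular identifiers are not independent molecules.

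Variation between libraries was uncommon in the table as a whole. Of the 10787 genes that averaged 2 CPM or more, 3.12% were at least 2-fold apart between the Pachon libraries, 4.98% between the Tinaja libraries and 5.19% between the Surface libraries. Most genes, 9644, were 2-fold apart in no population, 907 in 1, 181 in 2 and 55 in all 3. The members had more reads behind them than that background, with a median of mean CPM of 53.0 against 9.85, on a scale that is not per gene length. They were 11 of 5453 genes from 2 to 10 CPM (0.202%), 24 of 4432 from 10 to 100 CPM (0.542%), 16 of 730 from 100 to 1000 CPM (2.19%) and 4 of 172 at 1000 CPM or more (2.33%).

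The members were drawn from larger sets of genes apart in a pair of populations, described here from the same differences that the rule used. Of 136 genes chosen as 2-fold apart in Tinaja and Surface, 55 (40.4%) were also 2-fold apart in Pachon, where the background was 3.12%. Of 114 genes chosen in Pachon and Surface, 55 (48.2%) were apart in Tinaja, against 4.98%. Of 96 genes chosen in Pachon and Tinaja, 55 (57.3%) were apart in Surface, against 5.19%. The count of 55 is fixed by the rule, genes measured in the same library pair are not independent, and nothing is read from the shares beyond this description. The median size of the log2 difference in the population left out was 0.76 in Pachon, 0.95 in Tinaja and 1.68 in Surface, against 0.19, 0.26 and 0.25 over all 10787 genes.

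**Figure D1:**
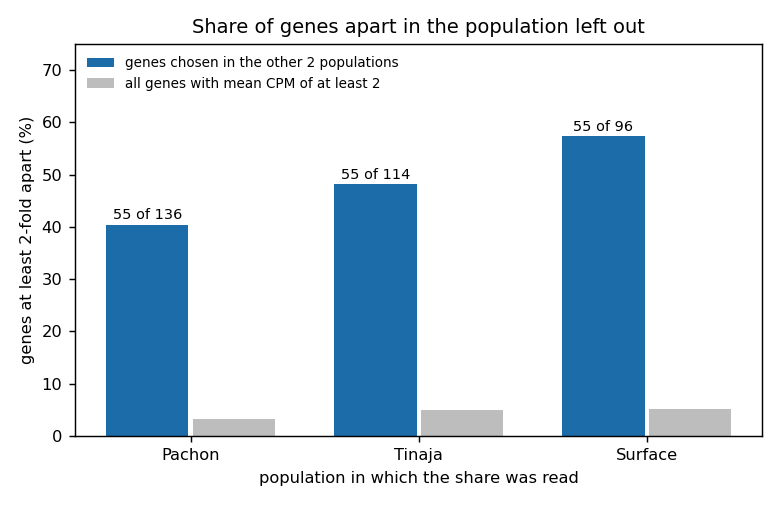
Percent of genes at least 2-fold apart between the libraries of a population (y axis), for Pachon, Tinaja and Surface (x axis). Blue bars are genes chosen because they were 2-fold apart in the other 2 populations, with their numbers above; grey bars are all 10787 genes averaging 2 CPM or more. The values are those the rule used and are a description. The blue bars stand at 40.4%, 48.2% and 57.3%, the grey ones at 3.12%, 4.98% and 5.19%.

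Most members shared 1 pattern of direction. In 34 of the 55 (61.8%) library 1 was higher than library 2 in Pachon, Tinaja and Surface alike. In 8 (14.5%) library 1 was higher in Pachon and Surface and library 2 in Tinaja. The other 13 were spread over 4 patterns of 5, 4, 3 and 1 members, and 2 of the 8 possible patterns, those with library 2 higher in both caves, had none. At a lower threshold of 1.5-fold, chosen after the data were seen, of 201 genes, 53 had library 1 higher in all 3 populations, and the other 7 patterns held from 9 to 33 genes each. At 3-fold, 18 of 23 genes had library 1 higher in all 3.

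**Figure D2:**
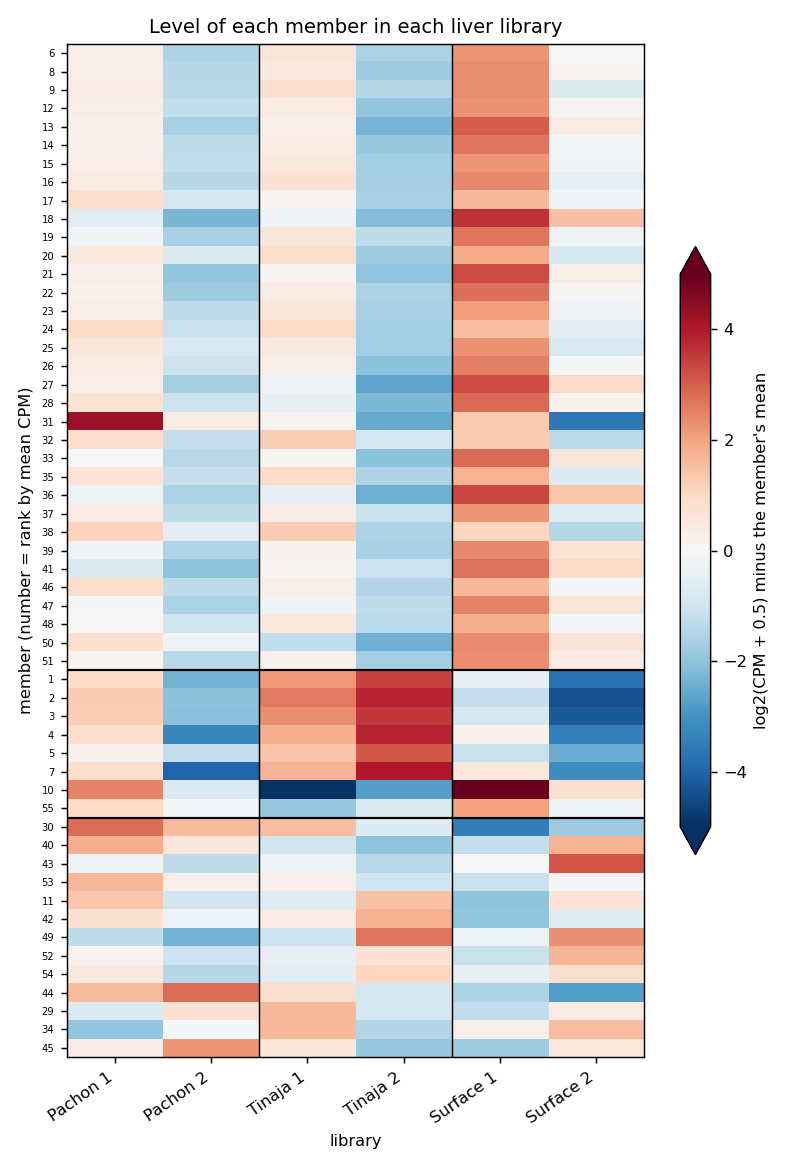
Colour shows log2(CPM + 0.5) of each member (rows, numbered by rank in mean CPM) in each liver library (columns) minus that member's mean over the 6 libraries; black lines separate the 34 members with library 1 higher in every population (top), the 8 with library 1 higher in Pachon and Surface and library 2 in Tinaja (middle) and the other 13 (bottom). Surface 1 is the reddest column in 32 of the top 34 rows, and Tinaja 2 in 6 of the middle 8. The definition of these classes lets only the higher library of a population be the reddest.

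The class of 8 held the 5 members with the highest mean CPM. ENSAMXG00000038452 (member 1) had 33959 and 3485 CPM in Pachon 1 and 2, 81697 and 191230 CPM in Tinaja 1 and 2, and 13499 and 1340 CPM in Surface 1 and 2. Both Tinaja libraries lay above all 4 others, while the Pachon and Surface libraries interleaved. Its libraries were 9.74-fold apart in Pachon, 2.34-fold in Tinaja and 10.1-fold in Surface.

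Members 2, 3 and 4 had the same order of libraries as member 1. Member 2 had 21178 and 2114 CPM in Pachon, 53143 and 123646 CPM in Tinaja, and 3849 and 419 CPM in Surface. Member 3 had 16249 and 1613 CPM in Pachon, 34472 and 80337 CPM in Tinaja, and 3947 and 375 CPM in Surface. Member 4 had 4721 and 264 CPM in Pachon, 8969 and 35647 CPM in Tinaja, and 2863 and 238 CPM in Surface. In each of the 3, Tinaja 2 was highest and Surface 2 lowest.

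Members 1, 2 and 3 kept nearly fixed proportions within a population. Relative to member 1, the log2 level of member 2 differed between the libraries of a population by 0.04 in Pachon, 0.01 in Tinaja and -0.13 in Surface, although member 2 itself moved 10.02-fold in Pachon, 2.33-fold in Tinaja and 9.18-fold in Surface. Between populations the proportions differed: member 2 averaged -0.70 relative to member 1 in Pachon, -0.62 in Tinaja and -1.74 in Surface. For member 3 the differences between libraries were 0.05 in Pachon, 0.01 in Tinaja and 0.06 in Surface, and its averages relative to member 1 were -1.09 in Pachon, -1.25 in Tinaja and -1.80 in Surface. For both genes all 4 cave libraries lay above both Surface libraries in this ratio. The treatment of reads that map to several genes is not stated in any source used here. A split of reads among similar copies, if any of these are copies, was not tested.

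Other members of the class were looser. Relative to member 1, member 4 differed between libraries by 0.88 in Pachon, -0.76 in Tinaja and 0.26 in Surface. ENSAMXG00000017109 (member 5) moved less than member 1 in Pachon and Surface and more in Tinaja, with 387 and 145 CPM in Pachon, 894 and 2884 CPM in Tinaja, and 152 and 59.4 CPM in Surface. Its libraries were 2.67-fold apart in Pachon, 3.23-fold in Tinaja and 2.54-fold in Surface. Member 7 moved more than member 1 in all 3 populations, with 164 and 5.2 CPM in Pachon, 295 and 1479 CPM in Tinaja, and 132 and 10.02 CPM in Surface, or 28.8-fold, 5.01-fold and 12.6-fold. As a description over 6 libraries from 3 populations, the members whose log2(CPM + 0.5) followed member 1 most closely were members 3, 2, 4, 5 and 7, with Pearson coefficients of 0.995, 0.989, 0.981, 0.959 and 0.950. For the other 49 members the coefficient was at most 0.658.

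Members 10 and 55 shared the directions of this class but not its levels. Member 10 had 153 and 15.6 CPM in Pachon, 0.397 and 3.5 CPM in Tinaja, and 982 and 46.9 CPM in Surface. Its Tinaja libraries were the lowest of the 6, where those of members 1 to 5 and 7 were the highest. Its largest and smallest libraries were 1095-fold apart on the CPM + 0.5 scale, the widest range of any member. The smallest, Tinaja 1, held 10 reads at a CPM below the added 0.5, so the size of that range depends on the added value. Member 55, with the lowest mean of all members, had 4.14 and 1.79 CPM in Pachon, 0.159 and 0.985 CPM in Tinaja, and 9.32 and 1.61 CPM in Surface.

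The class of 8 took 9.26% and 1.02% of the counts in Pachon 1 and 2, 18.2% and 35.9% in Tinaja 1 and 2, and 2.09% and 0.225% in Surface 1 and 2. All 55 together took 9.68% and 1.17% of the counts in Pachon 1 and 2, 18.5% and 36.0% in Tinaja 1 and 2, and 2.99% and 0.455% in Surface 1 and 2, so that the class held most of the members' counts in every library but Surface 2. Members 1 to 3 alone took 8.61% and 0.962% in Pachon, 17.2% and 32.6% in Tinaja, and 1.75% and 0.193% in Surface. The membership of these 3 genes depended on the scaling. All 55 members qualified with DESeq2 size factors and, in an unplanned setting, with TMM factors taken without the members. With CPM from total counts, 46 of the 55 members still qualified, but members 1 to 3 did not, and the class of 8 was reduced to 4. The 57 genes chosen on that scale took 1.09% and 0.22% of the counts in Pachon, 1.40% and 3.42% in Tinaja, and 1.27% and 0.274% in Surface.

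**Figure D3:**
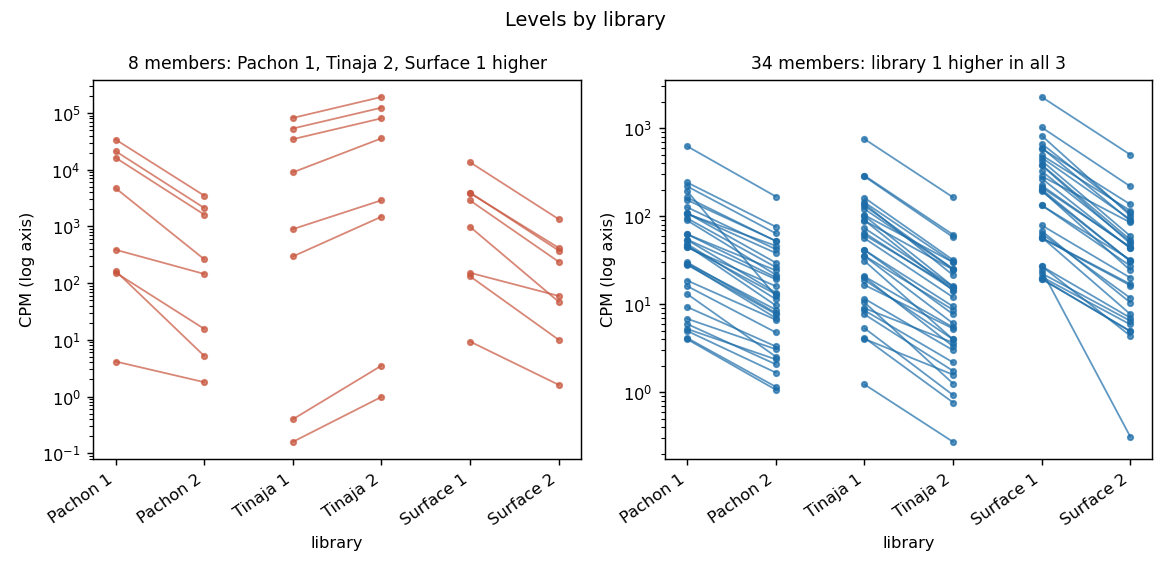
CPM on a log axis (y) in each library (x), with 1 line per member and population joining library 1 to library 2; left, the 8 members with library 1 higher in Pachon and Surface and library 2 in Tinaja, right, the 34 with library 1 higher in every population. On the left library 2 is the lower end in Pachon and Surface and the upper end in Tinaja, where member 1 is at 81697 CPM in Tinaja 1 and 191230 CPM in Tinaja 2; on the right library 2 is the lower end throughout.

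The class of 34 is defined by library 1 being higher everywhere, which leaves the size of the difference free above 2-fold. The median log2 difference of library 1 from library 2 was 1.64 in Pachon (SD over members 0.49), 2.14 in Tinaja (SD 0.42) and 2.33 in Surface (SD 0.61), or 3.12-fold, 4.42-fold and 5.03-fold. Of the 34, 29 lay within 0.5 of the class mean in Pachon, 25 in Tinaja and 22 in Surface. The summed level of the class was 2856 and 818 CPM in Pachon 1 and 2, 2995 and 631 CPM in Tinaja 1 and 2, and 10870 and 2061 CPM in Surface 1 and 2. Surface 1 was the highest library for 32 of the 34, and Tinaja 2 was the lowest for 26. By the definition of the class the highest is always a library 1 and the lowest a library 2.

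Member 6 had the highest mean of this class. It had 626 and 168 CPM in Pachon, 756 and 164 CPM in Tinaja, and 2274 and 502 CPM in Surface. Each cave library 1 lay above Surface 2, so that caves and Surface overlapped. Members 8 and 9 had the same overlap. Member 8 had 243 and 76.1 CPM in Pachon, 284 and 58.0 CPM in Tinaja, and 1026 and 219 CPM in Surface. Member 9 had 219 and 64.1 CPM in Pachon, 290 and 62.0 CPM in Tinaja, and 827 and 102 CPM in Surface.

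Across the class, Pachon 1 and Tinaja 1 were within 2-fold of each other on the CPM + 0.5 scale for 31 of the 34. The same share was not taken over all genes. Their median size of log2 fold change between Pachon and Tinaja was 0.43, under 2-fold, so the count is not read as a trait of the class. Surface 2 exceeded the number 2 libraries of both caves for 30 members and lay below the number 1 libraries of both caves for 22. These 2 shares were not taken over all genes either. The class sets Surface 2 as the lower Surface library and each library 1 as the higher cave library. That favours the count of 22, and neither count is read as a trait of the class. Surface 2 exceeded all 4 cave libraries for 10 members. ENSAMXG00000010920 (member 18) was one of these 10, with 28.0 and 7.74 CPM in Pachon, 35.7 and 8.64 CPM in Tinaja, and 496 and 116 CPM in Surface. Among all tested genes, 35.9% had all 4 cave libraries on one side of both Surface libraries, in either direction.

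Member 31 stood apart within the class. It had the largest smallest difference of any member, 2.65 on the log2 scale, with 194 and 12.4 CPM in Pachon, 10.5 and 1.26 CPM in Tinaja, and 24.4 and 0.313 CPM in Surface. Pachon 1 was its highest library, where Surface 1 led in 32 of the class and Tinaja 1 in the remaining one. The next members by smallest difference were 7 and 10, described above, then 11 and 21. Member 21 had 46.8 and 9.71 CPM in Pachon, 41.4 and 9.46 CPM in Tinaja, and 380 and 49.1 CPM in Surface, so that Surface 1 was far above the other 5 libraries.

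**Figure D4:**
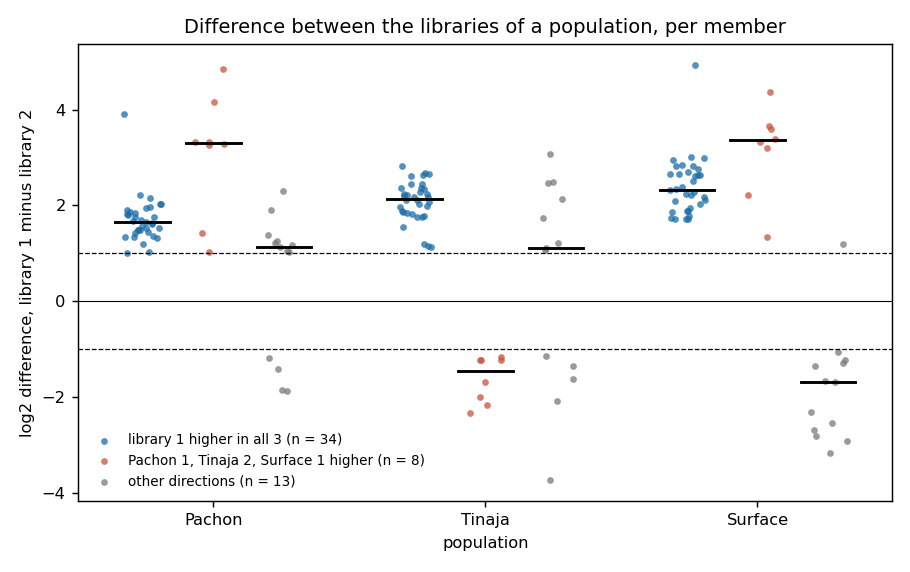
Log2 difference of library 1 from library 2 on the CPM + 0.5 scale (y) for each member (points) in Pachon, Tinaja and Surface (x), coloured by direction class; black bars are class medians and dashed lines mark the 2-fold threshold at 1 and -1. The 34 blue members lie above 1 in all 3 populations, with medians of 1.64, 2.14 and 2.33, and the 8 red ones change side in Tinaja, with a median of -1.46.

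The other 13 members had 4 patterns of direction. Member 11 had 349 and 70.6 CPM in Pachon, 90.3 and 382 CPM in Tinaja, and 33.8 and 222 CPM in Surface. Library 2 was higher in Tinaja and Surface and library 1 in Pachon, and the ranges of the 3 populations overlapped. Members 42, 49, 52 and 54 shared its directions, with means from 3.33 to 14.9 CPM.

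Members 29, 34 and 45 were the mirror image of the class of 8, with library 2 higher in Pachon and Surface and library 1 in Tinaja. Member 29 had 22.1 and 59.7 CPM in Pachon, 109 and 19.0 CPM in Tinaja, and 14.7 and 47.9 CPM in Surface. Member 34 had 4.55 and 18 CPM in Pachon, 58.4 and 6.51 CPM in Tinaja, and 22.4 and 55.8 CPM in Surface. The levels were not a mirror image: for members 29 and 34 Tinaja 1 was the highest of the 6 libraries and Tinaja 2 lay below Surface 2, whereas both Tinaja libraries of member 1 exceeded the other 4.

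Members 30, 40, 43 and 53 had library 1 higher in both caves and library 2 higher in Surface. Member 43 had 4.91 and 2.11 CPM in Pachon, 4.72 and 1.91 CPM in Tinaja, and 5.61 and 54.2 CPM in Surface, so that Surface 2 alone was high. ENSAMXG00000043957 (member 44) was the only member with library 2 higher in Pachon and library 1 in both other populations, with 16.5 and 38.0 CPM in Pachon, 9.80 and 2.57 CPM in Tinaja, and 1.36 and 0.313 CPM in Surface.

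At the threshold, the members just inside were 48, 55 and 42, whose smallest differences were 2.00-fold, 2.03-fold and 2.04-fold, each in Pachon. The genes just outside were 1.99-fold, 1.98-fold and 1.98-fold apart in their closest population. Only 3 further genes were 2-fold apart in every population with a mean under 2 CPM, the highest at 1.64 CPM.

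Levels between populations were compared over the whole table of 15282 genes that passed a filter on low counts, and all 55 members passed it. The rule used these levels through the mean over all 6 libraries. A member low in 1 population could meet that minimum through the others. Two-sided quasi-likelihood F-tests in edgeR were adjusted by Benjamini-Hochberg over all of those genes, and "called" means an adjusted p below 0.05. Members were bound to have a wide spread between libraries, with a median standard error of 1.17 on the log2 scale for Pachon against Surface, where the median over all genes was 0.29. That spread enters the test's error, and its part in the share of members called was not tested. The share depended on the tool: DESeq2 called 12.7% of members in Pachon against Surface, 25.5% in Tinaja against Surface and 30.9% for the mean of both caves, where it called 20%, 19.2% and 20.4% of all genes. The comparisons with Surface share the Surface libraries. Fits that left out 1 library called fewer genes over the whole table in every comparison. The part of that fall in the calls lost by members was not tested. Wide gaps between the libraries of a population also widen its range of CPM, so the rule favoured overlap between populations. The shares of members without overlap given below are therefore a description.

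In Pachon against Surface, 2 of 55 members were called (3.64%), where 16.9% of all tested genes were. Both were higher in Pachon. Member 44, whose CPM stand above, was higher by 4.99 on the log2 scale with an SE of 1.00 (adjusted p = 0.0314, edgeR). Its Surface libraries held 33 and 7 reads, a mean of 0.84 CPM, so it met the minimum mean through the caves. Its Pachon and Surface libraries did not overlap. Leaving out any 1 of those 4 libraries ended the call, with log2 fold changes from 4.29 without Pachon 2 to 6.41 without Surface 1. With all 6 libraries its adjusted p ran from 8.14e-05 with DESeq2 to 0.117 in edgeR with no filter.

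Member 30 had 124 and 53.0 CPM in Pachon against 1.11 and 4.70 CPM in Surface. It was higher in Pachon by 4.93 on the log2 scale with an SE of 1.13 (adjusted p = 0.0449, edgeR). Leaving out any 1 of those 4 libraries ended the call, with log2 fold changes from 4.18 without Pachon 1 to 6.30 without Surface 2. With all 6 libraries its adjusted p ran from 0.000228 with DESeq2 to 0.152 in edgeR with no filter. The Pachon and Surface libraries did not overlap in CPM for 17 members (30.9%), 4 higher and 13 lower in Pachon, where 63.7% of all tested genes did not overlap.

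In Tinaja against Surface, 2 of 55 members were called (3.64%), where 15.8% of all tested genes were. Member 5 had 894 and 2884 CPM in Tinaja against 152 and 59.4 CPM in Surface, higher by 4.17 on the log2 scale with an SE of 0.87 (adjusted p = 0.0266, edgeR). It lost the call without Tinaja 2, without Surface 1 and without Surface 2, with log2 fold changes of 3.08, 5.01 and 3.65. With all 6 libraries its adjusted p ran from 0.000301 with DESeq2 to 0.0753 in edgeR with no filter.

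Member 50, of the class of 34, had 1.23 and 0.274 CPM in Tinaja against 20.5 and 5.90 CPM in Surface, a log2 fold change of -4.05 with an SE of 0.95 (adjusted p = 0.0472, edgeR). Its Tinaja libraries held 31 and 5 reads, a mean of 0.75 CPM, so it met the minimum mean through the other populations. Of the 6 libraries, Surface 2 was the only one that could be left out with the call kept. The adjusted p of member 50 was 0.0733 in edgeR with only Tinaja and Surface fitted. With all 6 libraries it ran from 3.28e-06 with DESeq2 to 0.158 in edgeR with no filter.

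The Tinaja and Surface libraries did not overlap in CPM for 24 members (43.6%), 9 higher and 15 lower in Tinaja, where 60.3% of all tested genes did not overlap. All 8 members of the class of 8 were among them, 6 higher and 2 lower. The 2 lower were members 10 and 55, with 10 and 64 reads and 4 and 18 reads in Tinaja. Their Tinaja means were 1.95 and 0.57 CPM, so both met the minimum mean through the other populations. Member 1 had a log2 fold change of 4.21 with an SE of 1.6 (adjusted p = 0.142, edgeR). Member 10 had a log2 fold change of -8.07 with an SE of 2.38 (adjusted p = 0.084, edgeR). Neither passed the threshold.

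For the mean of both caves against Surface, 4 of 55 members were called (7.27%), where 17.8% of all tested genes were. Member 44 was higher in the caves by 3.93 on the log2 scale with an SE of 0.93 (adjusted p = 0.0469, edgeR). Members 18, 36 and 41, all of the class of 34, were lower. Member 44 kept its call without Tinaja 2 but not without any other single library, and over all its alternatives its adjusted p ran from 0.00044 with DESeq2 to 0.156 with no filter.

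Member 18 gave a log2 fold change of -3.94 with an SE of 0.91 (adjusted p = 0.0431, edgeR). It was -2.54 without Surface 1, where the call was lost, and -4.64 without Surface 2, where the call was kept. Leaving out any 1 of the cave libraries ended the call. With all 6 libraries, its adjusted p was 0.147 in edgeR with no filter and 0.00187 in DESeq2. It was lowest, at 0.000341 in edgeR, with a term for library number added (the replicate block). The members were chosen for differences that the block removes from the error.

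Member 36 had 5.98 and 2.08 CPM in Pachon, 5.36 and 0.93 CPM in Tinaja, and 79.1 and 20.04 CPM in Surface. Its log2 fold change was -3.79 with an SE of 0.85 (adjusted p = 0.0408, edgeR). Member 41 had 4.98 and 1.68 CPM in Pachon, 9.05 and 3.67 CPM in Tinaja, and 57.0 and 16.4 CPM in Surface. Its log2 fold change was -2.99 with an SE of 0.69 (adjusted p = 0.044, edgeR). For each, Surface 2, the lower Surface library, exceeded all 4 cave libraries.

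Both kept the call without Surface 2 and lost it without any other single library. Without Surface 1 the log2 fold change was -2.47 for member 36 and -1.83 for member 41. With no filter the adjusted p in edgeR was 0.146 for member 36 and 0.15 for member 41. The lowest adjusted p of member 36 was 0.000341, in edgeR with the replicate block, where DESeq2 gave 0.00283. For member 41 the lowest was 1.7e-05, with DESeq2. All 4 cave libraries lay on one side of both Surface libraries for 14 members (25.5%), 3 higher and 11 lower, where 35.9% of all tested genes did.

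The class of 34 was at lower levels in the caves than in Surface by its median, and the size of that median depended on which library was left out. In Pachon against Surface the log2 fold change was below 0 for 32 of the 34, with a median of -1.83, where the median of all tested genes was -0.01. In Tinaja against Surface it was again below 0 for 32, with a median of -1.88, where the median of all genes was 0.00015. Without Surface 1 the medians were -0.27 in Pachon and -0.30 in Tinaja, with 22 of 34 below 0 in each. Surface 1 is the higher Surface library of the class by definition, so leaving it out had to raise the medians. For Pachon, leaving out another library compared gave medians from -2.97 without Pachon 1 to -1.22 without Pachon 2. For Tinaja they ran from -3.31 without Tinaja 1 to -1.15 without Tinaja 2. The direction of these moves was also set by the definition of the class. Scaling by total counts put the median of all genes at 0.55 for Pachon and 0.08 for Tinaja, and the medians of the class at -1.25 for Pachon and -1.65 for Tinaja. In Pachon against Surface edgeR called 0 of the 34, and DESeq2 called 4. In Tinaja against Surface edgeR called 1, member 50, and DESeq2 called 5. For the mean of both caves edgeR called 3, members 18, 36 and 41, and DESeq2 called 8. Over all tested genes edgeR called 16.9%, 15.8% and 17.8% in these comparisons and DESeq2 20%, 19.2% and 20.4%.

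The class of 8 had median log2 fold changes against Surface of 1.00 in Pachon, with 6 of 8 above 0, and 4.02 in Tinaja, with the same count above 0. For Pachon the median was -1.37 without Pachon 1, 0.13 without Surface 2 and 3.23 without Surface 1, so that its sign depended on a single library. For Tinaja the median ran from 2.80 without Tinaja 2 to 6.53 without Surface 1. The class is defined by which library is higher in each population, so the direction of these moves was set by that definition.

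Between the caves, Pachon against Tinaja, edgeR called 0 of 55 members, where 9.22% of all tested genes were called. The lowest adjusted p of a member in edgeR was 0.0831. DESeq2 called 3 members (5.45%), where it called 13.5% of all genes. The median log2 fold change of the class of 34 was -0.04, between 1.62 without Tinaja 1 and -1.17 without Pachon 1, and was 0.31 under total-count scaling, where the median of all genes was 0.48. The median of the class of 8 was -2.86, between -1.83 without Tinaja 2 and -5.25 without Pachon 1. For both classes the direction of the moves on leaving out a cave library was set by the definition of the class. The Pachon and Tinaja libraries did not overlap in CPM for 15 members (27.3%), 8 higher and 7 lower in Pachon, where 60.9% of all tested genes did not overlap. All 8 members of the class of 8 were among these, with members 1 to 5 and 7 lower and members 10 and 55 higher in Pachon. Members 10, 50 and 55 averaged 1.95, 0.75 and 0.57 CPM in Tinaja, and member 49 averaged 0.52 CPM in Pachon. These members met the minimum mean through the other populations.

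**Figure D5:**
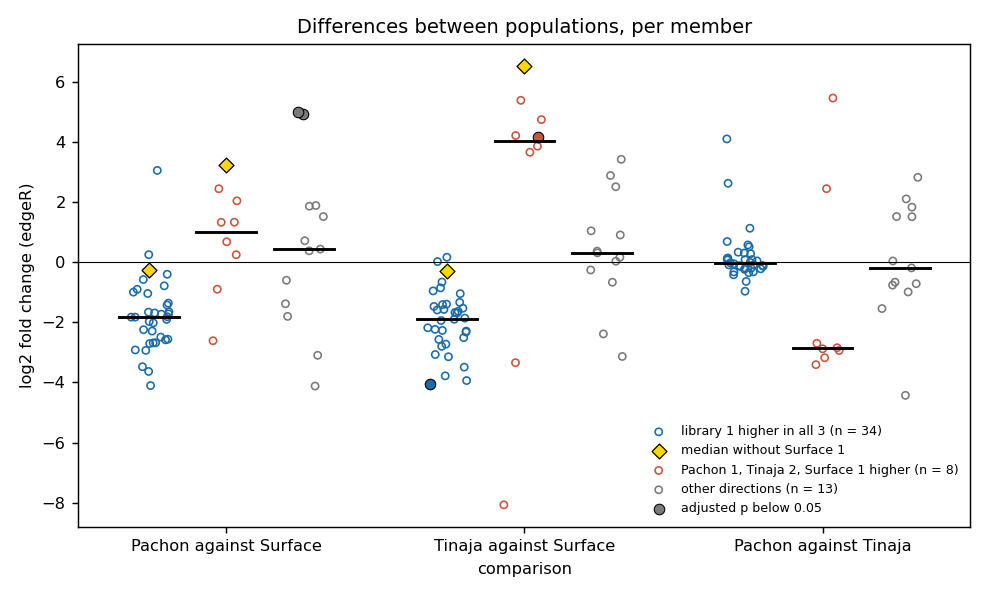
Log2 fold change from edgeR (y) of each member in 3 comparisons (x), coloured by direction class; filled points passed an adjusted p of 0.05, black bars are class medians, and gold diamonds are the medians of the classes of 34 and 8 without Surface 1. For the class of 34 the median moves from -1.83 to -0.27 in Pachon against Surface and from -1.88 to -0.30 in Tinaja against Surface when Surface 1 is left out. The direction of that move is set by the definition of the class.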

How the data were processed

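The data were raw read counts per gene, as deposited by the authors, for 6 liver libraries, 2 each from Pachon, Tinaja and Surface, with 22168622 to 29521610 counts per library. Per the submitters' processing notes, bcl2fastq 2.20 and STAR were used. Which program counted the reads, and with which strand and multimapping settings, is not given in the sources used here. Members, lists and tests were chosen with earlier results of these data known. In R 4.3.3, edgeR 4.0.16 gave TMM factors, CPM and robust quasi-likelihood F-tests. The fit held all 6 libraries with a term per population (3 residual degrees of freedom), after edgeR's filterByExpr at a minimum count of 10, and p-values were adjusted by Benjamini-Hochberg over all 15282 genes tested. The common biological coefficient of variation came to 25.1%. An SE was obtained from the log2 fold change and F, as the size of the first over the root of the second. Alternatives were DESeq2 1.42.0, other scalings, filters, pseudocounts and thresholds, a replicate block, and leaving out each library. The selection rule and the test were tested on simulated data.

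No reference at hand paired the table's Ensembl identifiers with gene symbols, and 0 of them could be matched. The gene lists drawn up for liver therefore could not be used. The rule for named members took the 10 with the highest mean CPM, the called member with the highest and with the lowest log2 fold change among those without overlap in each comparison, the 5 whose smallest difference between libraries was largest, the 5 most like member 1, and the 3 members just inside and 3 genes just outside the threshold. Members 29, 34, 36, 40, 41, 43, 45, 49, 52, 53 and 54 were named after their values were seen. Member 30 was too, although it fits the rule as worded, with the lower fold change of the 2 members called in Pachon against Surface.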

Additional observations from a re-analysis of the deposited data

How the results depend on the processing

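With 2 libraries per population, counts of called members moved with most settings. The counts here are for Pachon against Surface, Tinaja against Surface and the mean of both caves against Surface, in that order. With total-count scaling 1, 1 and 1 members were called (1.82% each, where 30.1%, 14.2% and 21% of all genes were). With no filter 0, 0 and 0 were called, where 13.6%, 12.7% and 14.1% of 22247 genes were. With DESeq2 7, 14 and 17 were called. Between Pachon and Tinaja DESeq2 called 3 (5.45%, where 13.5% of all genes were). With DESeq2 the members' shares of 25.5% in Tinaja and 30.9% in both caves lay above those of all genes, 19.2% and 20.4%, where with edgeR they lay below. The counts against Surface also changed in fits that left out 1 library, and those between Pachon and Tinaja did not. Such fits leave 1 library in a population, so their counts are not given. Of 100 other settings of the called members' fold changes, 47 kept the call, 53 lost it and 0 changed direction. These settings include the fits that left out 1 library, in which fewer of all genes were called too. The causes of these changes were not tested.

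The rule gave 201 genes at 1.5-fold and 23 at 3-fold, with library 1 higher in all 3 populations for 53 and 18, and the pattern of the class of 8 for 31 and 3. It gave 4 of that pattern with total counts. Members chosen with total counts took 1.09%, 1.40% and 3.42% of the counts in Pachon 1, Tinaja 1 and Tinaja 2. Those at 3-fold took 0.907%, 1.17%, 3.13% and 0.962% in Pachon 1, Tinaja 1, Tinaja 2 and Surface 1. At a minimum mean of 10 CPM, 49.4% of genes chosen in the other populations were apart in Pachon, 52.4% in Tinaja and 67.7% in Surface. The background shares at that minimum were 3.52%, 5.76% and 5.74%. At 3-fold the shares were 41.1%, 54.8% and 79.3%, where the background was 1.03%, 1.33% and 2.1%. These shares come from the differences that the rule used and are a description. Other scalings, pseudocounts and minimum means gave 44 to 74 members. Leaving out a library leaves its population with no difference, so membership could not be recomputed, and a fit of only the populations compared does not apply to the mean of both caves.

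Over all tested genes, the differences between library 1 and library 2 were weakly related between populations. Pearson's r over 15282 genes was -0.11 for Pachon and Tinaja, 0.04 for Pachon and Surface and 0.02 for Tinaja and Surface. Such an r cannot show whether the numbers pair the samples for a smaller set of genes, which was not tested. With the replicate block, 27, 27 and 28 members were called against Surface (49.1%, 49.1% and 50.9%, where 14%, 12.8% and 14.8% of all genes were) and 2 between Pachon and Tinaja (3.64%, where 6.83% were). The members were chosen for differences between numbered libraries, most in 1 direction, which the block removes from the error. With the Pachon and Tinaja numbers crossed, chosen after seeing the data, 9 members were called between them (16.4%, where 8.79% of all genes were). That crossing follows the directions of the class of 8, which come from the values the rule used.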
